A study of Mus musculus with 14 samples.

Results

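The 10 glycolysis and lactate genes described here are Slc2a1, Hk2, Pfkp, Aldoa, Pgk1, Eno1, Pkm, Ldha, Pdk1 and Slc16a3. They were taken by symbol from 2 tables of counts per gene, each of 23420 lines, and all 10 were found in both. After the filter on low counts all 10 were tested in liver, among 12851 genes, and 9 in stellate cells, among 12681, where Eno1 was too low. Polyadenylated RNA had been sequenced from 14 mouse libraries in 6 groups. Of these, 3 were livers lacking p62 (p62KO) and 3 were wild-type (WT) livers. All 6 mice had received the liver carcinogen diethylnitrosamine (DEN) as well as a high-fat diet, so that no untreated liver is among them. The other 8 were hepatic stellate cells (HSC) derived from p62KO or WT livers, immortalized with the SV40 antigen and cultured with calcipotriol, a vitamin D receptor agonist, or with vehicle, giving 4 groups of 2. How old the mice were, how many cell lines stand for a genotype, how long and at what dose calcipotriol was given, and whether replicates were cultured separately is not given in the sources used here. P-values therefore measure the spread between these libraries, which may be technical.

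Glycolysis breaks glucose down to pyruvate in the cytosol. Transporters of the GLUT family bring glucose in, hexokinase traps it, and phosphofructokinase commits it to breakdown. Lactate dehydrogenase then turns pyruvate into lactate, which leaves the cell through monocarboxylate transporters, while pyruvate dehydrogenase kinases hold pyruvate back from the mitochondria. Many of these steps have isozymes. Hepatocytes use a set suited to fluctuating glucose and to gluconeogenesis (Slc2a2 and Pklr among them), and proliferating or mesenchymal cells use the ubiquitous set to which most of the 10 genes belong. Several of the 10 are well-known targets of the hypoxia-inducible factor HIF-1 and of MYC, which bind short motifs related to the E-box.

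The promoters of 5 genes are shown because they belong to the 4 genes that differed between p62KO and WT stellate cells and to Ldha, whose window held the most of the motifs searched. Each stretch is from RefSeq on GRCm38.p6, reads 5′ to 3′ on the gene's own strand, lies upstream of the annotated start and ends before any annotated exon. Capitals mark ACGTG and GCGTG and the E-box CACGTG on either strand, so that CACGT is ACGTG read on the other strand. The stretches lie at chr11:120948817-120949052 (plus strand, Slc16a3), chr13:6648778-6649021 (minus, Pfkp), chr6:82774455-82774704 (minus, Hk2), chr2:71872974-71873223 (plus, Pdk1) and chr7:46845554-46845803 (plus, Ldha).
Slc16a3: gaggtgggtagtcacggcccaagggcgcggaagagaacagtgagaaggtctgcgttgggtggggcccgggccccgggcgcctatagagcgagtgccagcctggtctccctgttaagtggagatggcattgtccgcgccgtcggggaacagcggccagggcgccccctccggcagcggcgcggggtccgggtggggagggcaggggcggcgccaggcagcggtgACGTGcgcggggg
Pfkp: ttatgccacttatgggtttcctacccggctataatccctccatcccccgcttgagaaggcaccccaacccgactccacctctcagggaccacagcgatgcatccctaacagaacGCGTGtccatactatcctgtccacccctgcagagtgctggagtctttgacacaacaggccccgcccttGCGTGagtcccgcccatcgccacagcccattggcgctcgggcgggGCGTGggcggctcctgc
Hk2: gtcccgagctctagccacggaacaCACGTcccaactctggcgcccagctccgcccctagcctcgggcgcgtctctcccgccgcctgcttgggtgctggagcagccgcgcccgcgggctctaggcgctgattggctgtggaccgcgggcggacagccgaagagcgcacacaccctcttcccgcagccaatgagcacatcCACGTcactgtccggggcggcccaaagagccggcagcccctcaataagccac
Pdk1: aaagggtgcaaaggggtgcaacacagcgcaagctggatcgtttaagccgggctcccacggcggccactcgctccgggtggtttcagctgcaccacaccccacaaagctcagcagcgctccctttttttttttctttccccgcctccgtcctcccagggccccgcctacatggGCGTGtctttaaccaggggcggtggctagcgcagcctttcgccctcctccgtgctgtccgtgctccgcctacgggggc
Ldha: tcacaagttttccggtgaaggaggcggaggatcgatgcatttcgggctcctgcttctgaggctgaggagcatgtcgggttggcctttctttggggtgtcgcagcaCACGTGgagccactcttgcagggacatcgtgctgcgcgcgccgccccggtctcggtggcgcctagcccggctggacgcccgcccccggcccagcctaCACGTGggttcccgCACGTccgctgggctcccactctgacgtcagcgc
ACGTG is the core of the hypoxia response element and GCGTG its variant, while each CACGTG holds ACGTG on both strands. Searched over windows from 250 bases before to 50 after a start, at least 1 of the 17 windows of each of the 10 genes held ACGTG or GCGTG. A window each of Aldoa, Pkm and Pdk1 held neither. Either of these 2 motifs stood in 43.8% of all 32851 promoter windows of that length, ACGTG in 19.6%, GCGTG in 32.4% and CACGTG in 7.15%. These shares are per window, whereas a gene counted if any of its windows held a motif, so the measures are not alike. The first Ldha window held 5 ACGTG, counted on both strands, and 2 CACGTG. The Pfkp window held 4 GCGTG, the windows of Slc16a3 and Hk2 held 2 ACGTG each, and the first Pdk1 window held 2 GCGTG. Some of these lie outside the stretches shown: past the start for Pfkp, across it for Pdk1, and before it but in an annotated exon for Slc16a3. G and C made up 73.3% of the Slc16a3 window, 67.3% of those of Hk2 and Ldha, 66.0% of that of Pdk1 and 64.7% of that of Pfkp, beside a mean of 53.8% over all promoters. A match in these letters is a description and not a binding site.

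Total counts ranged from 15207117 to 29079258 per library. Sqstm1, the gene of p62, had 1.44 to 2.12 CPM in p62KO livers and 448 to 583 CPM in WT livers, and at most 0.835 CPM in p62KO stellate cells, against at least 316 CPM in WT stellate cells. CPM are counts scaled to the TMM-adjusted library total. The stellate cell libraries held at most 0.215 CPM over 8 hepatocyte markers, and the collagen and fibroblast markers were high, but Lrat, a marker of quiescent stellate cells, was at 0 in all 8. The cholangiocyte list summed to 182 to 205 CPM in p62KO cells and 513 to 983 CPM in WT cells, with 2 of 3 tested genes lower under each treatment and 1 higher with calcipotriol. The stellate cell list summed to 6227 to 11555 CPM in p62KO cells and 3538 to 4175 CPM in WT cells. Of its 7 tested genes, 2 were higher and 0 lower with vehicle, and 3 higher and 1 lower with calcipotriol. The part of either in the results was not tested. The 2 libraries of a group were uneven in how far they differed: chi-square per degree of freedom was 190 between the 2 calcipotriol-treated and 58.0 between the 2 vehicle-treated p62KO libraries, against 11.7 and 1.66 in the matching WT groups. With 2 libraries a group, such a value does not show which of the 2 is unlike the group. An alternative fit left out calcipotriol-treated p62KO replicate 2 and vehicle-treated p62KO replicate 1 together, a choice made with earlier results known. Each p62KO group is then 1 library and the spread comes from the closer WT pairs alone, so more genes pass by construction and its counts of calls do not test stability.

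In stellate cells the largest difference among the 9 tested genes was in lactate export. Slc16a3, which encodes the monocarboxylate transporter MCT4, known for exporting lactate from glycolytic cells, had 22.8 and 16.0 CPM in vehicle-treated p62KO cells, against 2.04 and 1.67 CPM in vehicle-treated WT cells. With calcipotriol it had 22.8 and 31.6 CPM in p62KO cells, against 1.72 and 2.34 CPM in WT cells. All 4 p62KO libraries thus lay far above all 4 WT libraries. The fold was 10.4 with vehicle (log2 fold change 3.38 ± 0.33, SE, edgeR adjusted p = 0.00104) and 13.3 with calcipotriol (3.74 ± 0.32, edgeR adjusted p = 0.000602). It passed in all 8 fits that each left out 1 library, with log2 fold changes of 3.11 to 3.61 with vehicle and 3.46 to 3.96 with calcipotriol. No stretch of 75 bases of its transcript, the read length, was shared with another gene.

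Pfkp, the platelet-type subunit of phosphofructokinase, also rose in p62KO stellate cells. It had 31.8 and 46.5 CPM in vehicle-treated p62KO cells, against 15.6 and 17.8 CPM in WT cells, and 45.5 and 51.2 CPM in calcipotriol-treated p62KO cells, against 18.9 and 15.8 CPM in WT cells. The groups did not overlap under either treatment. The rise was 2.34-fold with vehicle (log2 fold change 1.23 ± 0.24, edgeR adjusted p = 0.0151) and 2.79-fold with calcipotriol (1.48 ± 0.24, edgeR adjusted p = 0.00637). Pfkp lies on chromosome 13, whose 476 tested genes were shifted by a median log2 fold change of 0.42 with vehicle and 0.23 with calcipotriol. With each chromosome's median removed, the Pfkp difference was 0.81 with vehicle (edgeR adjusted p = 0.0917), which no longer passed, and 1.29 with calcipotriol (edgeR adjusted p = 0.0192). Without either of the 2 WT libraries of its treatment Pfkp did not pass: adjusted p was 0.157 and 0.120 with vehicle and 0.0545 and 0.0847 with calcipotriol. Its exons share 748 bases with Pitrm1, a mitochondrial protease gene on the opposite strand. Pitrm1 had a log2 fold change of 0.60 with vehicle (edgeR adjusted p = 0.0556) and 0.70 with calcipotriol (edgeR adjusted p = 0.0274). The kit keeps strand, but whether the counting used strand is not given in the sources used here, so reads of the overlap cannot be told apart.

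Hk2, the inducible hexokinase, and Pdk1, a kinase that switches off pyruvate dehydrogenase, passed only among calcipotriol-treated cells, in opposite directions. With calcipotriol, Hk2 had 41.5 and 53.5 CPM in p62KO cells, against 27.6 and 26.9 CPM in WT cells, a rise with a log2 fold change of 0.80 ± 0.19 (edgeR adjusted p = 0.0259). With vehicle it had 41.1 and 36.7 CPM in p62KO cells, against 35.3 and 35.0 CPM in WT cells (0.15 ± 0.19, edgeR adjusted p = 0.654). The test of the difference between the 2 genotype effects gave 0.65 ± 0.27 for Hk2 (edgeR adjusted p = 0.708), so a genotype effect that depends on calcipotriol was not shown. Pdk1 had 14.5 and 12.1 CPM in calcipotriol-treated p62KO cells, against 28.7 and 26.7 CPM in WT cells, a fall with a log2 fold change of -1.06 ± 0.21 (edgeR adjusted p = 0.0137). With vehicle it had 22.5 and 17.4 CPM in p62KO cells, against 31.8 and 29.4 CPM in WT cells (-0.62 ± 0.21, edgeR adjusted p = 0.0899). Every p62KO library was thus below every WT library under both treatments, and the test of the difference between the treatments gave -0.45 ± 0.30 (edgeR adjusted p = 0.71). Hk2 did not pass with the median of chromosome 6 removed (0.48, edgeR adjusted p = 0.113), with only the 2 groups compared in the fit (edgeR adjusted p = 0.0853) or without any 1 of the 4 WT libraries (edgeR adjusted p 0.0739 to 0.175). Pdk1 did not pass without calcipotriol-treated WT replicate 1 (adjusted p = 0.108) or 2 (adjusted p = 0.0852).

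The 5 other tested genes did not pass the edgeR test in either genotype comparison of stellate cells. Slc2a1, the basal glucose transporter GLUT1, had 114 and 93.1 CPM in vehicle-treated p62KO cells, against 83.4 and 84.3 CPM in WT cells, and 98.6 and 160 CPM in calcipotriol-treated p62KO cells, against 75.6 and 84.9 CPM in WT cells. Its log2 fold changes were 0.30 ± 0.24 and 0.69 ± 0.24 (edgeR adjusted p = 0.446 and 0.0771), and with calcipotriol it passed with DESeq2 (adjusted p = 0.0472). Pkm, the pyruvate kinase of most tissues, had 1952 and 1656 CPM in vehicle-treated p62KO cells, against 1747 and 1749 CPM in WT cells. With calcipotriol, p62KO replicate 2 reached 3440 CPM beside 1859 CPM for replicate 1, while WT cells had 1483 and 1775 CPM (0.70 ± 0.28, edgeR adjusted p = 0.106). Aldoa, the aldolase of muscle and most tissues, ran the other way with vehicle, at 408 and 427 CPM in p62KO cells, against 632 and 617 CPM in WT cells (-0.58 ± 0.22, edgeR adjusted p = 0.121), and it passed with only the 2 groups compared in the fit (edgeR adjusted p = 0.0237). With calcipotriol the Aldoa groups overlapped, at 459 and 698 CPM in p62KO cells, against 556 and 629 CPM in WT cells (-0.035 ± 0.22). Ldha, the main lactate dehydrogenase subunit of such cells, had 604 and 584 CPM in vehicle-treated p62KO cells, against 789 and 760 CPM in WT cells (-0.38 ± 0.21, edgeR adjusted p = 0.27). With calcipotriol it overlapped between genotypes, at 603 and 838 CPM in p62KO cells, against 602 and 754 CPM in WT cells. Pgk1, phosphoglycerate kinase, overlapped under both treatments, with 238 and 217 CPM in vehicle-treated p62KO cells, against 246 and 234 CPM in WT cells. Slc16a3 thus rose under both treatments, whereas Ldha had -0.38 with vehicle and 0.09 with calcipotriol and passed in neither.

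**Figure D1:**
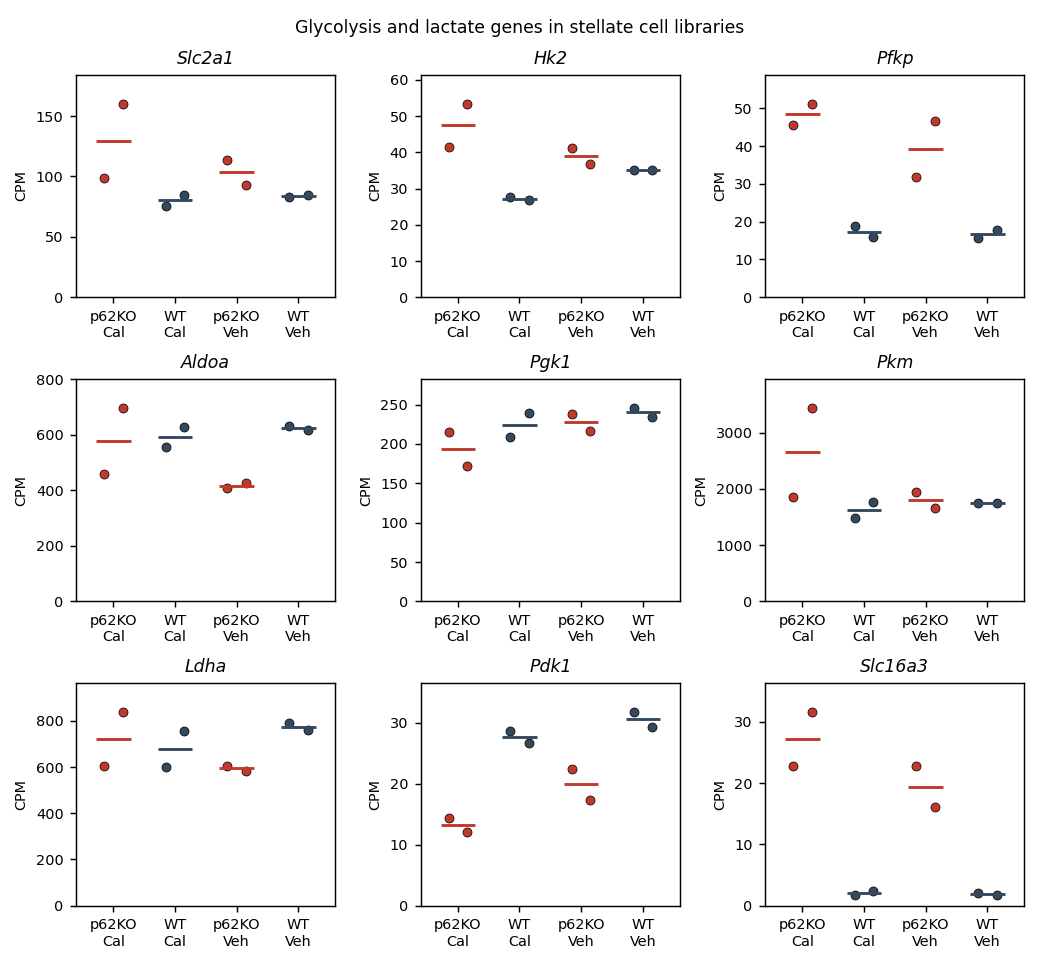
CPM of the 9 tested genes in the 8 stellate cell libraries (points; lines are means of 2), with p62KO in red and WT in dark blue, calcipotriol (Cal) and vehicle (Veh). For Slc16a3 the p62KO libraries lie at 16.0 to 31.6 CPM and the WT libraries at 1.67 to 2.34 CPM, while for Ldha and Pgk1 the calcipotriol groups overlap.

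Read as a set, 2 of the 9 genes rose and 0 fell in vehicle-treated p62KO cells, beside 6.95% of all tested genes that rose and 5.94% that fell (12.9% in either direction). With calcipotriol 3 rose and 1 fell, beside 10.3% and 9.53% of all genes (19.8% in either direction). At an unadjusted p under 0.05 in edgeR there were 4 of the 9 with vehicle and 6 with calcipotriol, beside 29.7% and 37.8% of all genes. The median log2 fold change of the 9 was 0.05 with vehicle and 0.69 with calcipotriol, beside 0.03 and -0.01 over all tested genes. The p62KO libraries lay above the WT libraries without overlap for 4 genes with vehicle and below them for 3, and with calcipotriol for 5 and 1. Such groups of 2 did not overlap for 68.8% of all genes with vehicle and 64.9% with calcipotriol, so these counts are close to the background. In the fit without 1 library of each p62KO group, whose spread comes from WT pairs alone, 5 genes passed with vehicle (Pfkp and Slc16a3 higher, Aldoa, Ldha and Pdk1 lower) and 6 with calcipotriol, beside 5459 and 5606 of all genes.

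**Figure D2:**
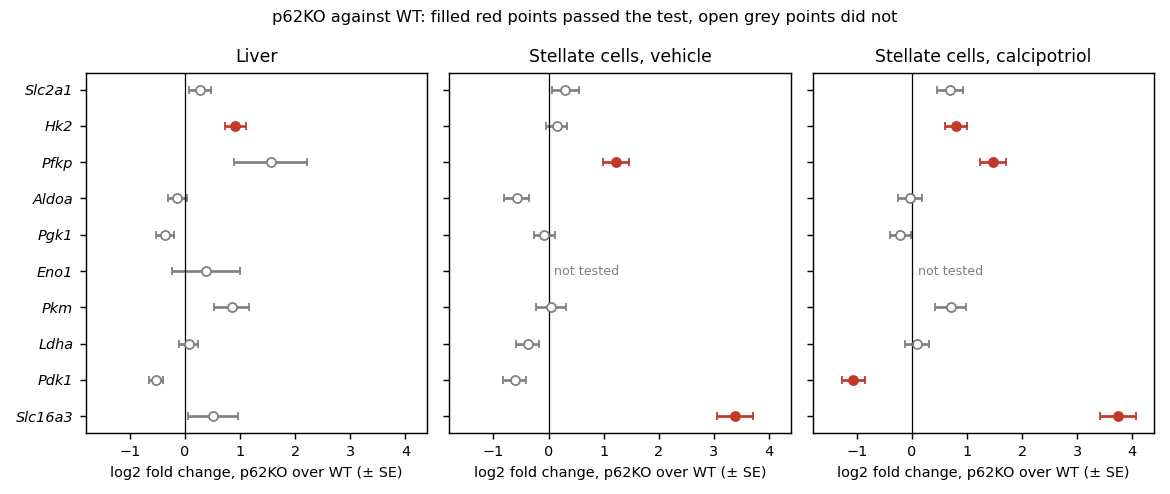
Log2 fold change of p62KO over WT (horizontal axis, points with SE bars) for each gene in liver, vehicle-treated and calcipotriol-treated stellate cells. Slc16a3 stands at 3.38 and 3.74 in stellate cells and at 0.51 in liver, and Eno1 was not tested in stellate cells.

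None of the 9 genes passed the test for calcipotriol over vehicle in either genotype. In WT cells the log2 fold changes of calcipotriol over vehicle ran from -0.37 (Hk2) to 0.13 (Slc16a3), none with an unadjusted p under 0.05. The edgeR test called 0 of all 12681 genes there, with 301 (2.37%) at an unadjusted p under 0.05, and DESeq2 called 16. With only the WT groups in the fit edgeR called 345 genes, and 283 in the fit without 1 library of each p62KO group, with 0 of the 9 in both. The libraries of the 2 treatments did not overlap for 3 of the 9 genes in WT cells, beside 54.3% of all genes, and Hk2, Ldha and Pdk1 were the 3, all lower with calcipotriol. In p62KO cells they ran from -0.59 (Pdk1) to 0.55 (Pkm), with Pdk1 alone at an unadjusted p under 0.05. The edgeR test called 0 of all genes there too, with 1714 (13.5%) at an unadjusted p under 0.05, and DESeq2 called 54. The treatments did not overlap in p62KO cells for 5 of the 9, beside 40.4% of all genes, with Hk2, Aldoa and Slc16a3 higher and Pgk1 and Pdk1 lower with calcipotriol, though for Slc16a3 the nearest libraries of the treatments both rounded to 22.8 CPM. Over both genotypes 0 of the 9 and 3 of all genes passed (0.0237%), with 763 genes (6.02%) at an unadjusted p under 0.05. For the difference between the genotypes' responses 0 of the 9 and 0 of all genes passed, also with DESeq2, with 677 (5.34%) at an unadjusted p under 0.05.

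That result in p62KO cells depended on 1 library. In calcipotriol-treated p62KO replicate 2 Pkm was 1.85, Slc2a1 1.63 and Aldoa 1.52 times its level in replicate 1, and these were the 3 genes of the 10 past 1.5-fold. Of 5 pathway neighbours outside the 10, the ratio was 1.79 for Gapdh, which shares 80.3% of its 75-base stretches with other genes, 1.72 for Hk1, 1.61 for Gpi1, 1.56 for Tpi1 and 1.06 for Pgam1. Hif1a, the oxygen-regulated HIF subunit, was at 0.482 and its targets Bnip3 and Vegfa at 0.423 and 1.35. Pgk1 was at 0.803 and Pdk1 at 0.833. These 5 ratios were not particular to that pair. Between the vehicle-treated p62KO libraries Hif1a was at 0.424, Bnip3 at 0.549, Vegfa at 1.83, Pgk1 at 0.913 and Pdk1 at 0.772. Ratios past 1.5-fold were common between the calcipotriol-treated p62KO libraries, at 40.3% of all genes, against 25.7% between the vehicle-treated p62KO libraries. They made up 11.3% between the calcipotriol-treated WT libraries and 6.97% between the vehicle-treated WT libraries. Without replicate 1, the calcipotriol response of p62KO cells had 6 of the 9 genes past the test. Of these, Pkm (log2 fold change 0.95), Aldoa (0.76), Slc2a1 (0.65), Ldha (0.52) and Hk2 (0.48) were higher and Pdk1 (-0.70) was lower, beside 4559 of all genes. In that fit replicate 2 is the lone library of its group and is assumed to vary like the others. Without replicate 2, 0 of the 9 passed, Pkm was at 0.041 and Aldoa at 0.13.

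**Figure D3:**
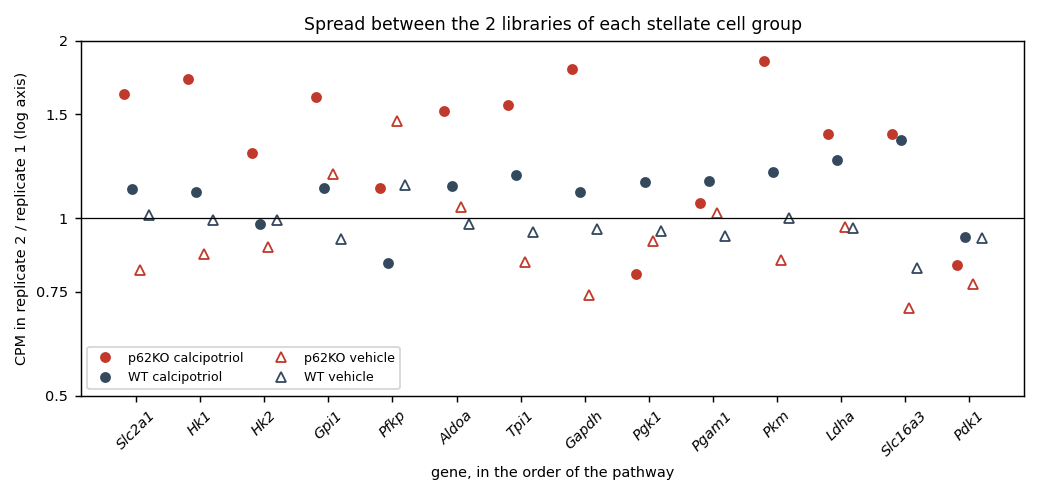
CPM of replicate 2 over replicate 1 (vertical log axis) for genes in pathway order, one symbol for each of the 4 stellate cell groups. In calcipotriol-treated p62KO cells (filled red) Pkm reaches 1.85 and Gapdh 1.79, and in vehicle-treated WT cells (open blue triangles) Pkm lies at 1.00.

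In liver, 1 of the 10 genes passed the test and 9 did not, beside 7.94% of all genes called, 4.48% higher and 3.45% lower. At an unadjusted p under 0.05 in edgeR there were 4 of the 10 (Hk2, Pfkp, Pkm and Pdk1), beside 32.5% of all genes. Hk2 had 11.7, 14.3 and 11.2 CPM in p62KO livers, against 7.90, 6.40 and 5.41 CPM in WT livers. All 3 p62KO livers were above all 3 WT livers, and the rise had a log2 fold change of 0.91 ± 0.19 (edgeR adjusted p = 0.0400). Hk2 passed without p62KO replicate 3 (edgeR adjusted p = 0.0161) and did not pass when any 1 of the other 5 libraries was left out (edgeR adjusted p 0.0667 to 0.151). In bulk tissue more cells of a type and more RNA per cell cannot be told apart, and several cell types differed in their markers. Macrophage markers summed to 690 to 812 CPM in p62KO livers and 293 to 541 CPM in WT livers, with 2 of 7 genes higher. Stellate cell and fibroblast markers summed to 619 to 1097 CPM in p62KO livers and 346 to 433 CPM in WT livers, with 4 of 8 higher. Cholangiocyte markers summed to 162 to 525 CPM in p62KO livers and 57.7 to 107 CPM in WT livers, with 2 of 6 higher, and markers of dividing cells to 23.7 to 45.4 CPM and 4.01 to 7.36 CPM, with 5 of 6 higher. Liver tumour cell markers summed to 108 to 1991 CPM in p62KO livers and 18.5 to 292 CPM in WT livers, with 2 of 6 higher, all 6 with a positive log2 fold change and a median of 2.62. Hepatocyte markers overlapped, with 1 of 8 lower, and so did those of endothelial cells, of T, NK and B cells, of neutrophils and of red blood cells, with 0 past the test. Outside the red blood cell list, of which some genes were at 0, no marker found in the table was at 0 in liver, and the part of these cell types in the Hk2 result was not tested.

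Pdk1 had 61.6, 54.9 and 49.1 CPM in p62KO livers, against 69.6, 86.3 and 83.0 CPM in WT livers. Every p62KO liver was below every WT liver, at a log2 fold change of -0.53 ± 0.13 that missed the threshold (edgeR adjusted p = 0.0539) and passed with DESeq2 (adjusted p = 0.00858). Pkm had 88.6, 62.3 and 45.7 CPM in p62KO livers, against 31.1, 52.5 and 25.7 CPM in WT livers, and the groups overlapped (0.85 ± 0.32, edgeR adjusted p = 0.120). Pfkp had 23.9, 4.76 and 4.84 CPM in p62KO livers, against 4.86, 4.08 and 2.45 CPM in WT livers. Its log2 fold change of 1.56 ± 0.66 (edgeR adjusted p = 0.153) was carried by p62KO replicate 1 and was 0.34 without it; the groups overlapped. Pgk1 had 154, 182 and 220 CPM in p62KO livers, against 217, 257 and 243 CPM in WT livers, with some overlap (-0.37 ± 0.16, edgeR adjusted p = 0.159). The 5 remaining genes overlapped between the groups. They were Ldha at 816, 850 and 651 CPM in p62KO livers, against 710, 807 and 699 CPM in WT livers, then Aldoa, Slc2a1, Slc16a3 and Eno1, with log2 fold changes between -0.14 and 0.51. Aldoa ranged over 115 to 153 CPM in p62KO livers and 126 to 171 CPM in WT livers, and Slc2a1 over 14.2 to 18.2 CPM in p62KO livers and 9.72 to 16.3 CPM in WT livers. Slc16a3 had 2.39, 1.20 and 1.67 CPM in p62KO livers, against 1.11, 1.92 and 0.669 CPM in WT livers, a difference of 0.51 ± 0.45 on the log2 scale (edgeR adjusted p = 0.464). The groups did not overlap for 2 of the 10 genes, beside 37.6% of all genes, and the median log2 fold change of the 10 was 0.33, beside 0.02 over all genes.

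**Figure D4:**
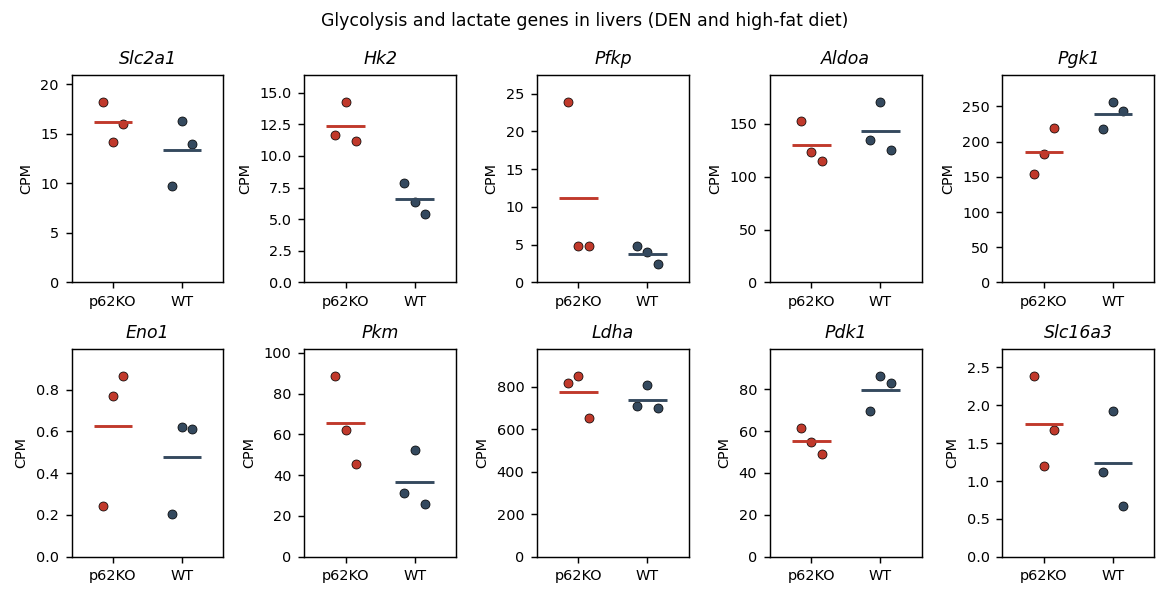
CPM of the 10 genes in the 3 p62KO livers (red) and the 3 WT livers (dark blue), with group means as lines. Hk2 and Pdk1 are the 2 genes whose groups do not overlap, and p62KO replicate 1 stands alone for Pfkp at 23.9 CPM.

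Eno1, the ubiquitous enolase, was close to 0 in every library. It had 0.24, 0.77 and 0.87 CPM in p62KO livers, against 0.20, 0.62 and 0.61 CPM in WT livers. In stellate cells it had 0 and 2 counts in vehicle-treated and 0 and 5 counts in calcipotriol-treated p62KO libraries, and 0 in all 4 WT libraries. Its neighbours in the pathway were abundant in the same cells, with Pkm at 1483 CPM or more. Of the 75-base stretches of its transcript, 65.4% also occur in the transcript of another gene, 64.2% in that of Eno1b, an intronless copy that the tables hold as Gm5506 and that was itself at most 0.849 CPM. How the authors treated reads that match several places is not given in the sources used here, so the Eno1 values are given as uncertain. Pgk1 shares 67.5% of such stretches with other genes, Pkm 19.6%, Pfkp 16.6%, Ldha 5.23%, Aldoa 1.49% and Slc2a1 0.973%, and Hk2, Pdk1 and Slc16a3 share none. The Pgk1 counts are therefore uncertain as well.

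Levels can be set against each other once divided by exon length. In vehicle-treated p62KO cells the order in CPM per kilobase was Pkm at 361 ± 42.0 (SD, n = 2), Ldha at 180 ± 4.20, Aldoa at 143 ± 4.49, Pgk1 at 101 ± 6.49, Slc2a1 at 29.5 ± 4.20 and Hk2 at 6.52 ± 0.527. In vehicle-treated WT cells the same 6 genes led in the same order, with Pkm at 350 ± 0.278, Ldha at 234 ± 6.16 and Aldoa at 215 ± 3.58. The genotypes parted at the low end. In vehicle-treated p62KO cells Slc16a3, at 3.65 ± 0.892, was above Pfkp, at 2.92 ± 0.777, and Pdk1, at 2.56 ± 0.466, though these 3 lay within their spread, and with the longest transcript as length Pfkp, at 4.51, was above Slc16a3, at 4.48. In WT cells the order was reversed, with Pdk1 at 3.93 ± 0.218, Pfkp at 1.25 ± 0.116 and Slc16a3 at 0.349 ± 0.0484. With calcipotriol the low end read Slc16a3 5.11 ± 1.18, Pfkp 3.61 ± 0.301 and Pdk1 1.71 ± 0.219 in p62KO cells, against Pdk1 3.56 ± 0.181, Pfkp 1.30 ± 0.161 and Slc16a3 0.382 ± 0.0822 in WT cells. In liver Ldha, Pgk1 and Aldoa led in both genotypes, and Ldha stood at 233 ± 32.2 CPM per kilobase in p62KO livers and 223 ± 18.0 in WT livers (SD, n = 3). Pkm came next in p62KO livers at 13.1 ± 4.33, above Pdk1 at 7.10 ± 0.806, whereas in WT livers Pdk1, at 10.2 ± 1.14, and Pkm, at 7.29 ± 2.83, lay within their spread.

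Genes of the 10 were also taken as shares of their sets of isozymes, from the same length-scaled levels, and in liver Slc2a1, Pfkp, Pkm, Pdk1 and Slc16a3 held the smaller part of their sets. In p62KO livers Pkm made up 17.2 ± 4.07% of Pkm and Pklr together, against 8.05 ± 3.65% in WT livers. Slc2a1 made up 8.42 ± 1.09% of Slc2a1 to Slc2a4 in p62KO livers and 5.53 ± 1.58% in WT livers, the rest being mostly the hepatocyte transporter Slc2a2. For both genes every p62KO liver was above every WT liver, and the exact two-sided permutation p was 0.1, the smallest that 3 against 3 allows (Benjamini-Hochberg adjusted p = 0.3 over 9 sets). Ldha made up 99.4 ± 0.113% of Ldha and Ldhb in p62KO livers and 99.3 ± 0.225% in WT livers (exact permutation p = 0.8).

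In stellate cells Pkm, Slc2a1 and Ldha held nearly the whole of their sets. Pklr was at 0 counts in all 8 libraries, and Slc2a1 held at least 99.1% in every library. Within the hexokinases Hk2 took 27.7 ± 0.374% in vehicle-treated p62KO cells, against 19.4 ± 0.00268% in WT cells, and 27.4 ± 4.05% in calcipotriol-treated p62KO cells, against 15.2 ± 1.14% in WT cells, with Hk1 holding nearly all of the rest. Pfkp took 10.4 ± 4.49% of the phosphofructokinase genes in vehicle-treated p62KO cells, against 3.44 ± 0.356% in WT cells. Slc16a3 took 11.5 ± 2.71% of Slc16a1, Slc16a3 and Slc16a7 in vehicle-treated p62KO cells, against 1.67 ± 0.201% in WT cells, and 19.7 ± 6.80% with calcipotriol in p62KO cells, against 2.05 ± 0.281% in WT cells. Slc16a1, the widespread transporter MCT1, therefore remained the main lactate transporter gene in both genotypes, at 87.4 ± 2.94% in vehicle-treated p62KO cells and 98.3 ± 0.201% in WT cells. Pdk1 took 7.77 ± 0.138% of the pyruvate dehydrogenase kinases in vehicle-treated p62KO cells, against 11.5 ± 0.225% in WT cells, while Pdk3 held the largest share in both. With 2 libraries a group these shares are descriptions with no test.

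**Figure D5:**
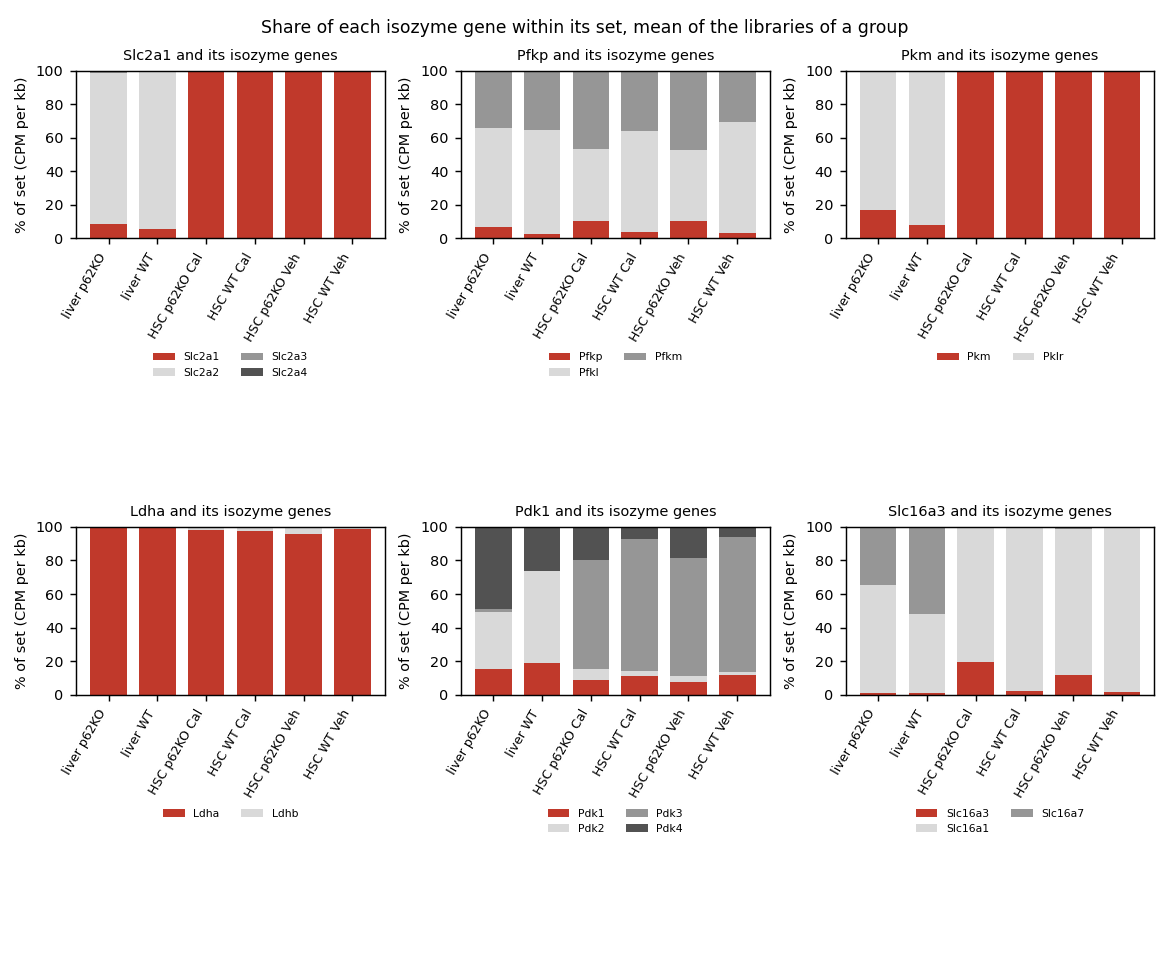
Mean share of each gene (red) and of its isozymes (greys) within 6 sets, in percent of CPM per kilobase, by group. In liver the hepatocyte isozymes fill most of the Slc2a1 and Pkm sets, and the red share of the Slc16a3 set is 19.7% in calcipotriol-treated p62KO cells and 2.05% in WT cells.

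Around these genes, 12 lists of the same and neighbouring pathways were counted in the same fits. In liver 4 of 99 tested list genes rose and 8 fell, beside 4.48% of all genes that rose and 3.45% that fell. Among the other glycolysis isozymes and steps, Hk3 rose (log2 fold change 1.04 ± 0.25, edgeR adjusted p = 0.0474), 1 of 14. Of 12 genes of pyruvate entry into mitochondria, 3 fell: the carrier subunit Mpc1, the dehydrogenase subunit Pdhb and the kinase Pdk2, with log2 fold changes of -0.64, -0.54 and -0.80. G6pdx, the first enzyme of the pentose phosphate pathway, rose (1.02 ± 0.18, edgeR adjusted p = 0.0331) and Pgls, the next, fell (-0.50 ± 0.11, edgeR adjusted p = 0.0442), out of 8. Pck2, the mitochondrial enzyme of phosphoenolpyruvate synthesis, rose, 1 of 5 tested gluconeogenesis genes, and so did Plod2, a collagen-modifying HIF target, 1 of 15. Mlxipl, the glucose-sensing factor ChREBP, fell (-0.76 ± 0.15, edgeR adjusted p = 0.0380), as did Shmt2 of serine and glycine conversion and Gbe1 of glycogen synthesis. No gene of glucose and lactate transport (9 tested), of the regulators of phosphofructokinase (4) or of the HIF factors and their regulators (8) passed, and Slc2a2 had -0.40 ± 0.12 (edgeR adjusted p = 0.0763). All 12 calls passed without p62KO replicate 3, and 0 of them passed when any 1 of the other 5 libraries was left out. The sums of macrophage, stellate cell, cholangiocyte and dividing cell markers were higher in p62KO livers, and the other marker sums overlapped between the genotypes. The part of these cell types in the 12 calls was not tested.

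In vehicle-treated stellate cells 8 of 87 tested list genes rose and 4 fell, and in calcipotriol-treated cells 11 rose and 8 fell. Beside the 12.9% and 19.8% of all genes called in either direction, these counts are close to the background. Those that passed under both treatments included Eno3, the muscle enolase, at 70.5 and 53.0 CPM in vehicle-treated p62KO cells, against 23.1 and 26.8 CPM in WT cells (log2 fold change 1.31 ± 0.21, edgeR adjusted p = 0.00827). Pck2 (1.33 with vehicle and 1.39 with calcipotriol), Phgdh, which opens serine synthesis (1.11 and 1.90), and Pfkfb4, which makes the activator of phosphofructokinase (1.20 and 1.35), also rose under both. Slc16a7, the transporter MCT2, was at 4.91 and 3.64 CPM in vehicle-treated p62KO cells and at 0 in WT cells, at least 42.3-fold higher when the WT group is set at 3 counts. With calcipotriol its ratio was 34.6, with a 95% counting interval of 9.33 to 289. Slc2a3, the transporter GLUT3, had ratios of 13.2 (4.28 to 66.3) with vehicle and 13.2 (3.41 to 112) with calcipotriol, from 2 or 3 counts in WT. Of 12 genes of pyruvate entry, Pdk4 rose with vehicle (1.59 ± 0.27, edgeR adjusted p = 0.00870), and with calcipotriol Mpc1 rose (1.32) and Pdhb fell (-0.65). With calcipotriol Psph, the last step of serine synthesis (1.13), and Pgls (1.19) rose as well.

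Of the hypoxia targets outside glycolysis, 17 were tested. With vehicle 0 rose and 3 fell, beside 6.95% of all genes that rose and 5.94% that fell. With calcipotriol 2 rose and 5 fell, beside 10.3% and 9.53% of all genes. The median log2 fold change of the 17 was 0.21 with vehicle and 0.24 with calcipotriol, beside 0.03 and -0.01 over all tested genes. Adm, the vasodilator peptide adrenomedullin, fell to 13.1 and 2.59 CPM in vehicle-treated p62KO cells, against 40.8 and 40.2 CPM in WT cells (-2.37 ± 0.57, edgeR adjusted p = 0.0302). With calcipotriol it had 3.11 and 3.04 CPM in p62KO cells, against 34.3 and 39.9 CPM in WT cells (-3.59 ± 0.60, edgeR adjusted p = 0.00754). P4ha1, a collagen prolyl hydroxylase (-0.89 and -1.22), and Mxi1, a MYC antagonist (-0.74 and -1.05), fell under both treatments, and Ddit4 (1.20) and Stc2 (1.07) rose with calcipotriol. Of 8 HIF factors and regulators, 0 passed with vehicle and 1 fell with calcipotriol, the oxygen sensor Egln3 (-1.33 ± 0.39, edgeR adjusted p = 0.0448). Hif1a itself had 443 and 188 CPM in vehicle-treated p62KO cells, against 290 and 295 CPM in WT cells. Glycogen genes had 1 of 9 higher (Pygb, 0.76) and 1 lower (Pgm1, -0.80) with vehicle. With calcipotriol 0 of the 9 were higher and 1 was lower, again Pgm1. Of 6 tested transcription factors of glycolytic genes, 0 passed under either treatment. Of the 12 vehicle calls, 1 passed without vehicle-treated WT replicate 1, 1 without replicate 2, and 7 with chromosome medians removed. Of the 19 calcipotriol calls, 2 passed without calcipotriol-treated WT replicate 1, 2 without replicate 2, and 13 with chromosome medians removed.

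The genes whose profile over the libraries was most like the mean profile of the 10, by root mean square distance of centred log2 CPM, were looked for among all other tested genes. Over the 6 livers they were Bin3 (0.0451), Pgm2l1 (0.0501), Tmem107 (0.0526), Nod1 (0.0563) and Actr3 (0.0573). Among the 10, Slc2a1 (0.173) and Ldha (0.183) were nearest to their own mean profile and Pfkp (0.836) farthest. Over the 8 stellate cell libraries the most similar genes included Jagn1 (0.0373), Rab43 (0.0397), Adcy6 (0.0428) and Tpm3 (0.0463). Slc2a1 (0.108) and Hk2 (0.110) were nearest to the mean of the 9 and Slc16a3 farthest.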

How the data were processed

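Per the labels' protocols, poly(A) RNA was made into directional libraries and read single-end at 75 bases. The authors deposited 2 tables of raw counts, liver and stellate cells, with genes as symbols. The build is mm10 per the submitters' processing notes; which aligner, counter and annotation were used is not given in the sources used here. Although the stellate cell file is named for a normalized unit, it holds whole numbers with unequal totals and was read as counts.

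EdgeR 4.0.16 (quasi-likelihood test, TMM scaling, filterByExpr) was run in R 4.3.3, with 1 fit for the 6 livers and 1 for the 8 stellate cell libraries, so that its groups of 2 share an estimate of the spread. P-values were two-sided and adjusted by Benjamini-Hochberg over all tested genes of a comparison, with a threshold of 0.05. The SE is the log2 fold change over the square root of F. Library totals of 15207117 to 29079258 set the counting error, and intervals and limits cover counting error only, since reads carry no molecular identifiers. CPM per kilobase used GENCODE exon lengths on GRCm38, on which 98.3% of symbols were placed. The liver and stellate cell tables were scaled separately and no test crosses them.

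The members and lists were chosen with earlier results of these data known. From each pathway list the text names up to 3 passing genes in each direction with the smallest p or, where none passed, may name the 1 with the smallest p; Gapdh, Tpi1, Gpi1, Hk1, Slc16a1, Pdk3, Pgam1, Hif1a, Bnip3, Vegfa, Gm5506 and Pitrm1 were named after their values were seen. Some genes that the rules select, and results that need them, are not reported here. Alternatives were RLE scaling, DESeq2 1.42.0, no filter, a replicate block, leaving out libraries, removing chromosome medians, fitting only the 2 groups compared, transcript length in place of exon length, and count shares.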

Additional observations from a re-analysis of the deposited data

Results flagged for a closer look

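For some genes of the pathway lists, all p62KO libraries lay above all WT libraries in liver and below them in stellate cells, or the reverse. This rule asks for no overlap and not for a passing test. The difference between the tissues was not tested, since the tables were scaled separately. Groups did not overlap for 37.6% of all genes in liver, 68.8% with vehicle and 64.9% with calcipotriol. Mpc1 and Pgls passed the edgeR test in liver and with calcipotriol, but not with vehicle. Eno3 and Slc16a7 did not pass in liver, and G6pdx, Pdk2 and Shmt2 did not pass in stellate cells. Eno3 had a log2 fold change of -0.55 in liver, against 1.31 (vehicle) and 1.38 (calcipotriol) in stellate cells. Mpc1 had -0.64 in liver, against 0.99 and 1.32. Pgls had -0.50 in liver, against 0.64 and 1.19. G6pdx had 1.02 in liver, against -0.60 and -0.64. Pdk2 had -0.80 in liver, against 0.58 in vehicle-treated cells, and Shmt2 had -0.70 in liver, against 0.44 in calcipotriol-treated cells. Slc16a7 had -0.55 in liver, and its stellate cell ratios are those given above for MCT2. Of the 10 glycolysis and lactate genes, 8 overlapped between the groups in liver, so the rule could not select them. Hk2 and Pdk1 did not overlap there, and each had the same direction in liver and in stellate cells.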

How the results depend on the processing

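Slc16a3 passed under every alternative run in both genotype comparisons of stellate cells, with log2 fold changes of 3.11 to 3.61 with vehicle and 3.46 to 3.96 with calcipotriol. Of 575 values of single genes counted under alternatives, 511 kept their direction and side of the threshold, 18 lost the threshold and 28 gained it. The other 18 changed sign, none of them a passing value. This count leaves out calcipotriol in WT cells. Over both genotypes it holds only Aldoa and Pkm, and for the difference between responses only Hk2, Aldoa and Pkm. Those genes were the ones that passed with 1 library left out. The changes of sign given below are from the counted values alone. The number of the 10 genes past the test was 2 in liver with DESeq2 and 0 to 4 when 1 library was left out, 4 without p62KO replicate 3 and 0 without any other. It was 1 with chromosome medians removed and 5 without 1 library of each p62KO group, a fit whose spread comes from WT pairs alone, in vehicle-treated stellate cells, where leaving out 1 library gave 1 to 4, 1 without either vehicle-treated WT library and 4 without either calcipotriol-treated p62KO library. With calcipotriol, leaving out 1 library gave 1 to 6, 1 without either calcipotriol-treated WT library and 6 without calcipotriol-treated p62KO replicate 1. For calcipotriol in p62KO cells it gave 0 to 6, over both genotypes 0 to 2 (Aldoa and Pkm) and for the difference between responses 0 to 3 (Hk2, Aldoa and Pkm), each time the higher number without calcipotriol-treated p62KO replicate 1. In WT cells it stayed at 0. The changes of sign when 1 library was left out gave ranges of -0.019 to 0.16 for Ldha in liver, -0.072 to 0.16 for Pkm with vehicle, -0.38 to 0.24 for Aldoa and -0.18 to 0.31 for Ldha with calcipotriol, -0.072 to 0.65 for Slc2a1 with calcipotriol in p62KO cells and -0.020 to 0.43 for Pkm over both genotypes. Without 1 library of each p62KO group, Pkm was at -0.071 with vehicle, Ldha at -0.18 with calcipotriol and Pfkp at -0.036 for calcipotriol in p62KO cells. With chromosome medians removed, Slc2a1 was at -0.017, Hk2 at -0.21 and Pkm at -0.039 with vehicle, Pgk1 at 0.14 and Ldha at -0.21 with calcipotriol, and Pgk1 at 0.15 and Ldha at -0.013 for calcipotriol in p62KO cells; the cause was not tested.

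All genes called in liver numbered 1020, 2372 with DESeq2 and 3 to 3669 with 1 library left out, 3669 without p62KO replicate 3 and at most 110 otherwise. In vehicle-treated cells they numbered 1634, and 238 to 3635 with 1 library left out. In calcipotriol-treated cells they numbered 2509, and 272 to 6052 with 1 library left out. These extremes came with the same libraries as those of the 10 genes, and the 2 counts were 1003 and 1412 when chromosome medians were removed. With only the 2 groups compared in the fit, 2397 passed with vehicle, more than in the main fit, and 1293 with calcipotriol, fewer than in the main fit. The replicate block left 1 gene of the 10 in liver, 2 with vehicle and 4 with calcipotriol, and 639 of all genes in liver. Deviations of same-numbered libraries correlated at 0.19, -0.19 and 0.14 in liver and at -0.15 to 0.43 in stellate cells. In groups of 2 the deviations mirror each other, so these values cannot decide whether replicate numbers pair the stellate cell samples. Length by longest transcript moved 47 of 60 levels past their SD, and shares from counts moved 41 of 54, but the sign of p62KO minus WT held in 9 of 9 sets in each of the 3 comparisons. The alternatives for the pathway lists were added after the data were seen. Depth limits the WT levels of Slc16a7 and Slc2a3 in stellate cells. The Eno1 values stay uncertain, since the counting of reads that match several places is not known.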
